A study of Mus musculus with 22 samples.

Results

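Primary mouse hepatocytes were compared with and without deferoxamine (DFO), and the responses outside the gene lists for hypoxia-inducible factor (HIF) targets, glycolysis and the cell cycle are described here. The comparison took the hepatocyte libraries by their labels, 6 control and 6 DFO libraries out of 22 libraries in the series. Of 55401 genes in the hepatocyte table, 15660 had enough counts to be tested, and 15567 of those lay outside the 3 lists. Both groups were labelled as wild-type C57BL/6 mice on a chow diet, whose hepatocytes were grown on collagen in Williams Medium E with serum. The cells were plated for 24 h and then kept for 24 h with DFO at 100 uM or with the placebo. The labels do not say whether the libraries of a group came from separate animals or separate dishes, so p-values reflect variation among these libraries, part or all of which may be technical. They also name a small RNA library kit and 4 biological replicates per group, which differs from the 6 libraries labelled.

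DFO is a bacterial siderophore that binds ferric iron tightly, and cells exposed to it lose the labile iron on which many enzymes depend. Those enzymes include the prolyl hydroxylases that mark HIF for destruction, ribonucleotide reductase, iron-sulphur proteins of the mitochondria and of DNA metabolism, and the haem-containing cytochromes P450. Hepatocytes in the liver make most plasma proteins, store glycogen, break down amino acids, make urea and bile acids and detoxify drugs.

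The cells carried hepatocyte transcripts, although several markers of mature hepatocytes were low in both groups. In the control libraries the median level of Alb, which encodes albumin, was 7835 CPM (counts scaled to the same library total), that of Ttr 364.8 and that of Apoa1 365 CPM. By contrast, the control medians of Cyp2e1, Pck1, G6pc and Asgr1 were 4.71, 4.86, 1.16 and 9.06 CPM, while Spp1 and Krt19, genes of bile duct cells and of hepatocytes in culture, stood at 2258 and 226.3 CPM. Total counts ran from 19342490 to 41839154 per library. The first principal component held 62.5% of the variance and separated the groups, and the second, with 9.99%, set the library DFO 6 (34.9) apart from DFO 1 (−25.0). The mean exonic length of the gene behind a count was 4.73 kb in DFO 6 and 5.02 to 5.36 kb in the other 11 libraries.

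Outside the 3 lists, 4329 genes (27.8%) were higher and 4673 (30%) lower with DFO, at an adjusted p under 0.05 in edgeR's quasi-likelihood test with Benjamini-Hochberg adjustment over all tested genes. Most of these changes were small: 685 genes (4.4%) rose and 553 (3.55%) fell by more than 2-fold. The lowest DFO library lay above the highest control library, or the reverse, for 5548 genes (35.6%), of which 2554 (16.4%) were higher and 2994 (19.2%) lower. Both directions together made up 57.8% of these genes, and their median log2 change was −0.001. For comparison, 30 of 33 tested genes of the HIF list were higher and none lower, and 35 of 38 cell cycle genes were lower and 1 higher.

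**Figure D1:**
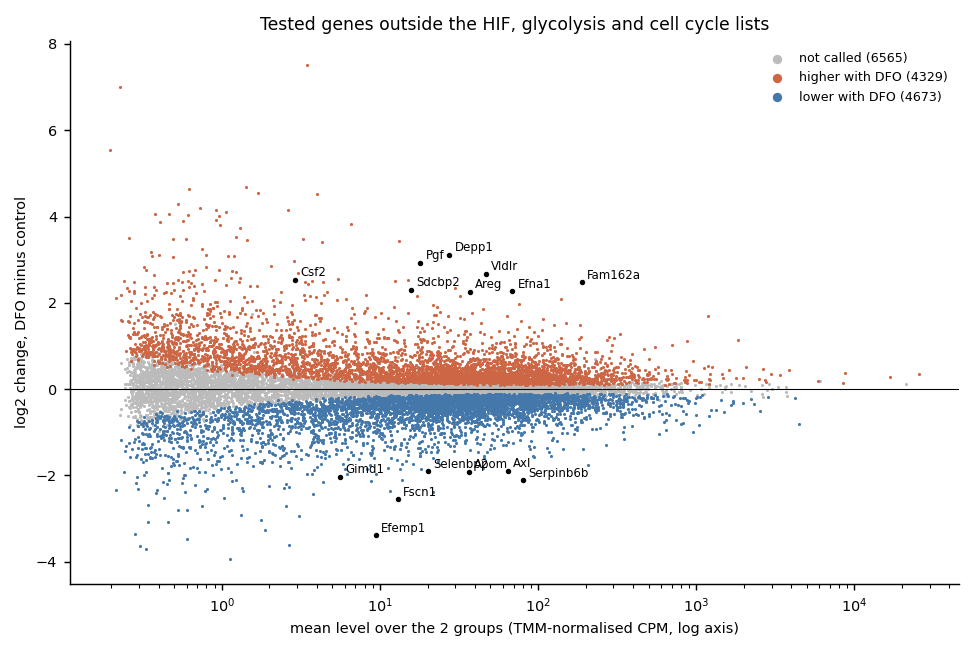
Log2 change with DFO (vertical) against the mean level of each tested gene outside the 3 lists (horizontal, CPM after TMM scaling on a log axis), with 8 leading increases and 7 leading decreases named in black. Orange points mark the 4329 higher genes, blue points the 4673 lower genes and grey points genes that were not called; the spread of changes is widest at low levels.

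Large changes were a feature of low-abundance genes. Genes were classed by the mean FPKM (fragments scaled by gene length and library total) of the group in which it was higher. Of 3754 genes below 1 FPKM, 16.7% were called with a change over 2-fold. The same held for 6.67% of 6642 genes between 1 and 10, 3.28% of 4658 genes between 10 and 100 and 2.92% of 513 genes above 100 FPKM. The share of called genes without regard to size was 44.4%, 60.1%, 65.3% and 59.8% in the same 4 classes. Direction also differed between kinds of gene. Of 13066 protein-coding genes 28.5% were higher and 33.2% lower, whereas of 403 long intergenic non-coding RNA genes 35.7% were higher and 15.9% lower, and of 404 antisense genes 28.2% were higher and 12.6% lower.

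Called protein-coding genes were ranked by log2 change, and the 20 at each end form the 40 leading genes. Each reached 5 FPKM in the higher group, with groups that did not overlap (1334 candidates higher and 1730 lower). Several of the increases belong to genes known to respond to low oxygen although they were not on the HIF list, among them Vldlr, Efna1, Fam162a, Gys1 and Bsg. The upstream sequences of the 3 largest increases and of the largest decrease are shown because the letters that HIF binds, ACGTG or GCGTG on either strand, can be looked for in them. Capitals mark those letters, or CACGT and CACGC where the match is on the other strand. Each runs 5′ to 3′ on the gene's own strand over the 250 bases before the start site of RefSeq (GRCm38.p6).
Depp1, chr6:116650434-116650683, plus strand: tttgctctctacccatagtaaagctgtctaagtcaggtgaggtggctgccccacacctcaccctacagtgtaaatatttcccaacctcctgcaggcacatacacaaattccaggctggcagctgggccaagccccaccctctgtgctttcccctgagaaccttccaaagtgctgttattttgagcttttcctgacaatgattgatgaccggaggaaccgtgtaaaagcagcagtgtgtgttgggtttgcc
Pgf, chr12:85177314-85177563, minus strand: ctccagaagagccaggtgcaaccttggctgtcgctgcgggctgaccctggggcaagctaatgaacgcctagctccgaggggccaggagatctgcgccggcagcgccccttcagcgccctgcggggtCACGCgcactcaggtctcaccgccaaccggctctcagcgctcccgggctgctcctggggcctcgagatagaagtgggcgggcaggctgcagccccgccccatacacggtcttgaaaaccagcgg
Vldlr, chr19:27216234-27216483, plus strand: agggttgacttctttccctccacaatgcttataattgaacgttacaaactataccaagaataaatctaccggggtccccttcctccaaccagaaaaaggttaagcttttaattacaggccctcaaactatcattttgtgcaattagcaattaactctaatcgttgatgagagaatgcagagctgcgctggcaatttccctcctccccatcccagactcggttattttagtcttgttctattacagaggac
Efemp1, chr11:28852955-28853204, plus strand: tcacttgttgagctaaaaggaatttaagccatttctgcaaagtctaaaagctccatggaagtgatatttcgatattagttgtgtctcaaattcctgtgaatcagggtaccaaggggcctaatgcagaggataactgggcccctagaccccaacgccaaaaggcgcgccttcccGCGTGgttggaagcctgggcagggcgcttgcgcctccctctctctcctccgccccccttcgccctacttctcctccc

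The letters occurred once in the window of Pgf, beginning 124 bases before the start, and once in that of Efemp1, beginning 77 bases before it, and were not found in the windows of Depp1 and Vldlr. The RefSeq start of Pgf lay 477 bases from the 5′ end of the gene in the deposited table, and that of Depp1 lay 75 bases from it. Over all tested genes with an entry in the promoter table, 6149 of 11115 windows (55.3%) held at least 1 match. Of the HIF list 21 of 24 windows (87.5%) did. Outside the lists the share was 47% of 415 windows for genes that rose over 2-fold and 46% of 391 for genes that fell over 2-fold. For genes higher by at most 2-fold it was 59.1% of 2678 windows, and for genes lower by at most 2-fold 54.3% of 3189. Genes that were not called had 55.1% of 4369. The letters were found in 5 of 15 windows for the 20 leading increases and 8 of 16 for the 20 leading decreases. The share of G and C in the windows was 63.4% for the HIF list and 59.5% over all tested genes with an entry. Outside the lists it was 57.9% and 58.2% for genes that rose or fell over 2-fold. For genes higher or lower by at most 2-fold it was 60.9% and 58.8%. The part of base composition in the matches was not tested. Matches in so short a window describe the letters only.

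The leading increases included secreted signals, a lipoprotein receptor and enzymes of fuel choice. Vldlr encodes the very low density lipoprotein receptor, which takes up triglyceride-rich particles (chromosome 19, 27216484 to 27254231, plus strand; coordinates are those of the deposited table, mm10). It ran from 11.7 to 14.0 CPM with a median of 12.7 in the controls and from 71.9 to 85.4 CPM with a median of 82.5 in the DFO libraries. Its log2 change was 2.67 ± 0.06 (SE, n = 6 each; edgeR adjusted p = 1.03e-15), and the groups were far apart. Areg encodes amphiregulin, a ligand of the EGF receptor, and went from 11.5 to 14.0 CPM (median 13.1) to 56.3 to 69.97 CPM (median 60.2). Its log2 change was 2.26 ± 0.07 (adjusted p = 5.62e-14). Every DFO library had several times the Areg level of any control library. Efna1, which encodes ephrin A1, a membrane ligand of Eph receptors, rose 4.82-fold. Csf2, the gene of the cytokine GM-CSF, rose 5.80-fold from a control median of 0.882 CPM to a DFO median of 4.71 CPM, and the library DFO 6 was highest at 6.29 CPM.

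Pdk4 encodes a kinase that shuts off pyruvate dehydrogenase, and is a textbook fasting gene (chromosome 6, 5483351 to 5496309). It ran from 50.8 to 57.7 CPM with a median of 53.3 in controls and from 199.6 to 239.9 CPM with a median of 235.8 with DFO. The log2 change was 2.08 ± 0.06 (adjusted p = 1.26e-14), without overlap. Rdh10, which makes retinaldehyde from retinol, rose 3.93-fold, from a median of 31.0 to 120.6 CPM. Fam162a, a mitochondrial protein gene, rose 5.55-fold, and DFO 6 was again highest, at 406.8 CPM against 273.0 to 318.9 CPM in the other DFO libraries. Bsg, which encodes basigin, the partner that carries lactate transporters to the membrane, was the most abundant of the 20. It rose from 535.8 to 584.0 CPM (median 561.2) to 1577 to 2162 CPM (median 1797), a log2 change of 1.70 ± 0.06. The remaining increases were those of Depp1, Pgf, Sdcbp2, Ctla2a, Prelid2, Nrn1, Upp1, Arrdc3, Narf, Bex2, Arg2 and Gys1. Upp1 encodes uridine phosphorylase, which salvages uridine, and rose 3.84-fold, and Arg2 encodes the mitochondrial arginase and rose 3.37-fold.

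**Figure D2:**
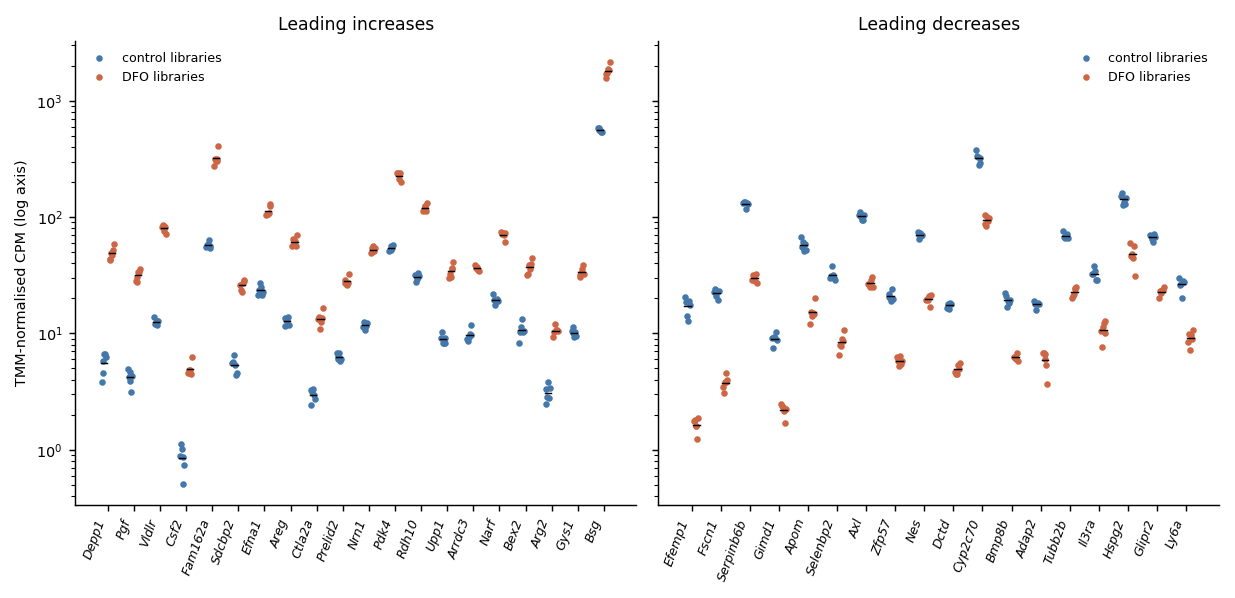
Level of 20 leading increases (left) and 18 leading decreases (right) in each of the 6 control (blue) and 6 DFO (orange) libraries, in CPM after TMM scaling on a log axis, with a black bar at each group's mean. The groups do not overlap for any gene shown, which the choice of genes required; Bsg is the most abundant increase and Cyp2c70 the most abundant decrease.

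The leading decreases were mixed in kind, with genes of the cytoskeleton, basement membrane, bile acid metabolism and nucleotide supply. Cyp2c70 encodes the mouse enzyme that makes muricholic acids from chenodeoxycholic acid (chromosome 19, 40153353 to 40187333). It fell from 278.3 to 377.6 CPM (median 324.8) to 83.8 to 104.8 CPM (median 96.1), a log2 change of −1.76 ± 0.07 (adjusted p = 2.95e-12). No DFO library came near the lowest control. Nes, the gene of the intermediate filament nestin, fell from a median of 69.8 to 19.6 CPM. Dctd encodes dCMP deaminase, which feeds the synthesis of thymidine nucleotides, and fell 3.56-fold. Hspg2, which encodes the basement membrane proteoglycan perlecan, fell from 127.2 to 160.4 CPM (median 140.2) to 31.0 to 60.2 CPM (median 47.3). Others were Efemp1, Fscn1, Serpinb6b, Gimd1, Apom, Selenbp2, Axl, Zfp57, Bmp8b, Adap2, Tubb2b, Il3ra, Glipr2 and Ly6a. Of the 40 leading genes 7 overlap another tested gene (Depp1, Fam162a, Nrn1, Arg2, Gys1, Bmp8b and Adap2). Overlap means that the spans from start to end meet, on either strand, and exons were not compared. The strand setting of the counting is not given in the sources used here. How far the reads of these genes can be told from those of the partner is therefore not known.

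The most abundant transcripts shifted by small factors that moved many counts. The 10 most abundant genes (Clu, mt-Co1, Trf, Alb, Eef1a1, Fn1, Gc, Aldh1a1, Krt8 and Selenop) held 9.96% ± 0.22 of all counts in controls and 11.1% ± 0.25 with DFO (SD, n = 6 each; two-sided exact permutation test, adjusted p = 0.0039 over 9 shares, where the smallest possible unadjusted p is 0.0022). Clu, which encodes the secreted chaperone clusterin, rose from a median of 22580 to 28370 CPM. Alb rose from 6785 to 8333 CPM (median 7705) to 8639 to 10560 CPM (median 10030), a log2 change of 0.36 ± 0.06 (adjusted p = 6.21e-05). Trf, the gene of the plasma iron carrier transferrin, rose 1.22-fold, Selenop, that of the selenium carrier, 1.36-fold, Gc, that of the vitamin D-binding protein, 1.14-fold, and B2m, that of the class I light chain, 1.38-fold. Eef2 rose 1.25-fold. Eef1a1 was 1.11-fold higher with overlapping groups (adjusted p = 0.0319), a call that was lost without any 1 of 6 libraries (adjusted p up to 0.0732) and with scaling by library totals (0.0611).

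Aldh1a1 encodes a retinaldehyde dehydrogenase and was the largest loss in counts (chromosome 19, 20492715 to 20643465). It fell from 5158 to 6337 CPM (median 5747) to 3062 to 3367 CPM (median 3296), a log2 change of −0.81 ± 0.05 (adjusted p = 1.25e-09). All 6 DFO libraries lay well below all 6 controls. Glud1, glutamate dehydrogenase, fell from a median of 1774 to 1221 CPM, and Serpina1b, an alpha-1-antitrypsin gene with near-identical neighbours that make its count uncertain, from 1284 to 642.8 CPM. Actb, Flna and Phldb2, genes of the cell cortex, fell 1.41-fold, 1.53-fold and 1.73-fold, and Flna was lowest in DFO 6 (729.3 CPM against 970.9 to 1067 in the rest). Lgals1, the gene of galectin 1, fell 1.78-fold, and Spp1, that of osteopontin, 1.25-fold. Krt8 and Apob were 1.16-fold and 1.27-fold lower, with overlapping groups (adjusted p = 0.0167 and 0.029). The call of Apob was lost without any 1 of control 1, control 5, control 6, DFO 4 and DFO 5 (adjusted p = 0.0525 to 0.0663). The increase of the ribosomal RNA fragment gene CT010467.1 (adjusted p = 0.0416) rested on DFO 4, at 8753 CPM against 1002 to 2151 in the other DFO libraries, and without that library its adjusted p was 0.469.

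**Figure D3:**
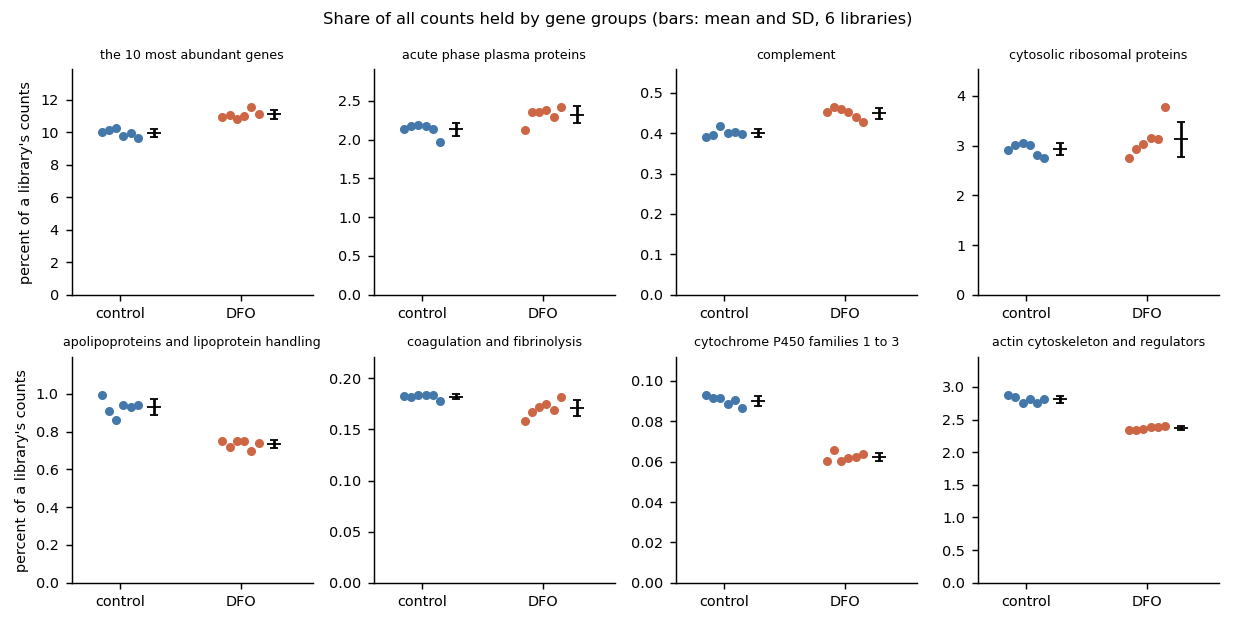
Percent of each library's counts held by 8 groups of genes, in 6 control (blue) and 6 DFO (orange) libraries; the bars beside the points are the mean and SD, and each vertical axis starts at 0. The DFO libraries lie above all controls for the 10 most abundant genes and complement and below all controls for apolipoproteins, cytochromes P450 and actin cytoskeleton genes, and DFO 6 stands above the rest for ribosomal proteins.

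Altogether 51 gene lists were read against these backgrounds of 27.8% higher and 30% lower. The lists and their members were chosen with earlier results of these data known, so their ranking is a description and not a test. The lists with the greatest share of higher members were immediate early genes, histones, clock genes, Wnt and Notch signalling and TGF-beta and BMP signalling. Those with the greatest share of lower members were ribosome biogenesis, serine and one-carbon metabolism, apolipoproteins, nucleotide synthesis and aminoacyl-tRNA synthetases. The tested members of each list are counted, with the same edgeR test and threshold throughout.

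**Figure D4:**
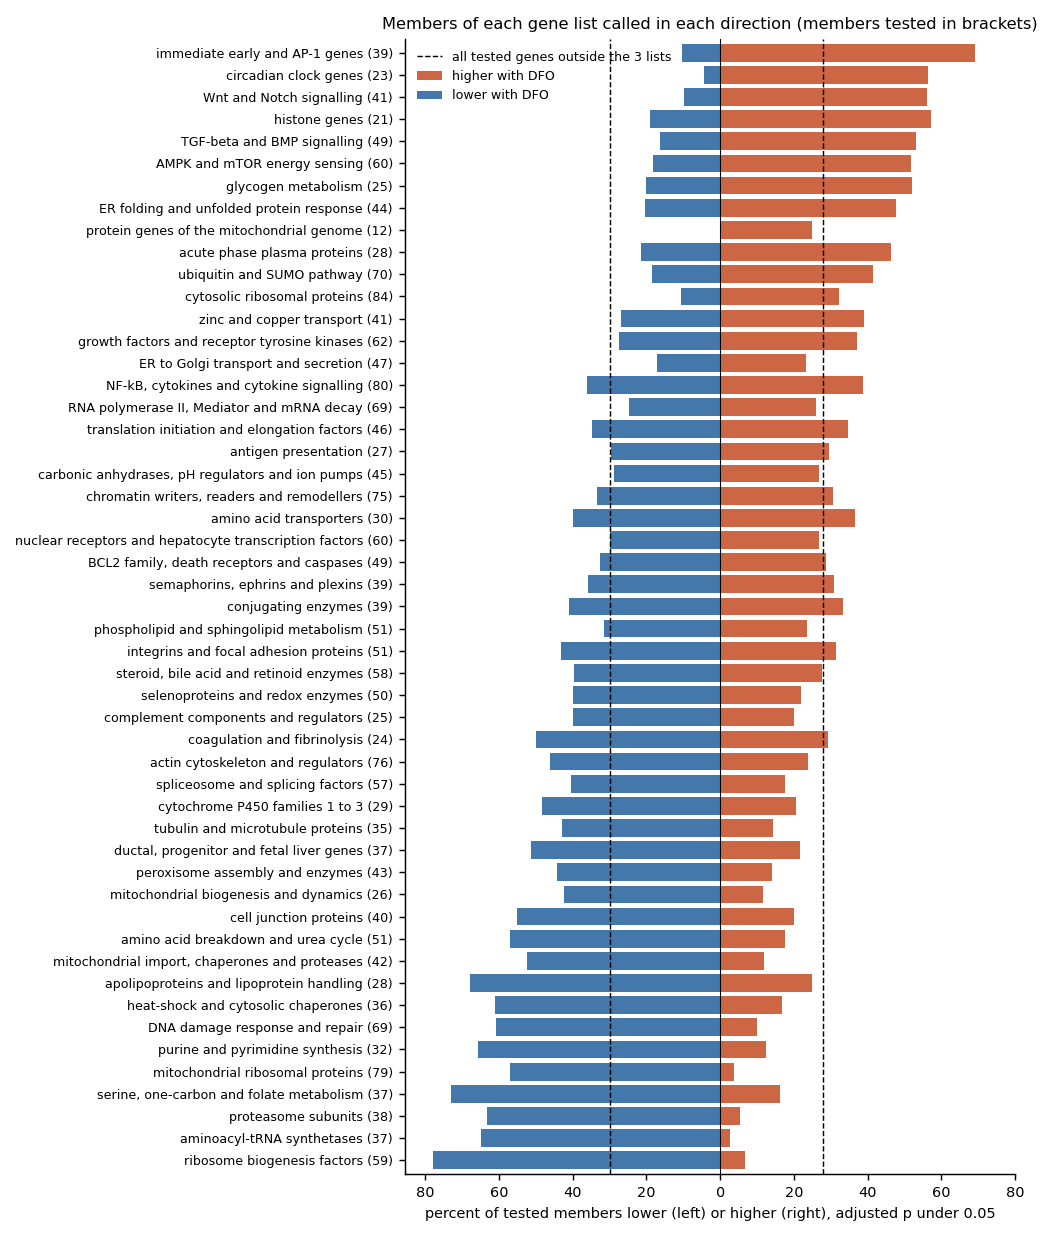
Percent of the tested members of each list that were higher (orange, right) or lower (blue, left) with DFO, for the lists named on the vertical axis with the number tested in brackets; dashed lines mark the shares over all tested genes outside the 3 lists, 27.8% higher and 30% lower. Immediate early genes extend furthest right and ribosome biogenesis factors furthest left.

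Glycogen genes changed by large factors, and more of them were higher than lower. Of 25 tested genes 13 were higher, 8 of them by over 2-fold, and 5 lower (median log2 change 0.22). Ugp2 makes UDP-glucose, the substrate of glycogen synthase (chromosome 11, 21321138 to 21371201). Its level was 189.9 to 205.9 CPM (median 191.3) in controls and 442.0 to 501.6 CPM (median 464.9) with DFO, a log2 change of 1.27 ± 0.04 (adjusted p = 2.72e-13). Pgm1, phosphoglucomutase, rose from a median of 170.7 to 392.9 CPM, and Ppp1r3c, which brings protein phosphatase 1 to glycogen, rose 5.59-fold from a low level (median 1.31 to 7.17 CPM). Gys1 encodes the muscle form of glycogen synthase and rose from 9.32 to 11.5 CPM (median 10.1) to 30.5 to 38.7 CPM (median 32.8), 3.31-fold. Gys2, the liver form, and the phosphorylase kinase subunit Phka2 fell (log2 change −0.55 and −0.60); both are named after their values were seen.

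Genes that sense nutrients and energy also tended upward, with 31 of 60 members of the AMPK and mTOR list higher and 11 lower (median 0.17). Rragd, a Rag GTPase that brings mTORC1 to the lysosome, rose from 9.83 to 12.6 CPM (median 11.1) to 29.4 to 34.7 CPM (median 32.3), a log2 change of 1.55 ± 0.07 (adjusted p = 4.03e-12). Flcn, the gene of folliculin, which acts on the Rag GTPases, rose 2.11-fold. Mknk2, a kinase of the translation factor eIF4E, rose 2.29-fold, and Foxo3, a transcription factor restrained by insulin signalling, 1.98-fold, from a median of 71.3 to 142.5 CPM. None of the 4 overlapped between groups.

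**Figure D5:**
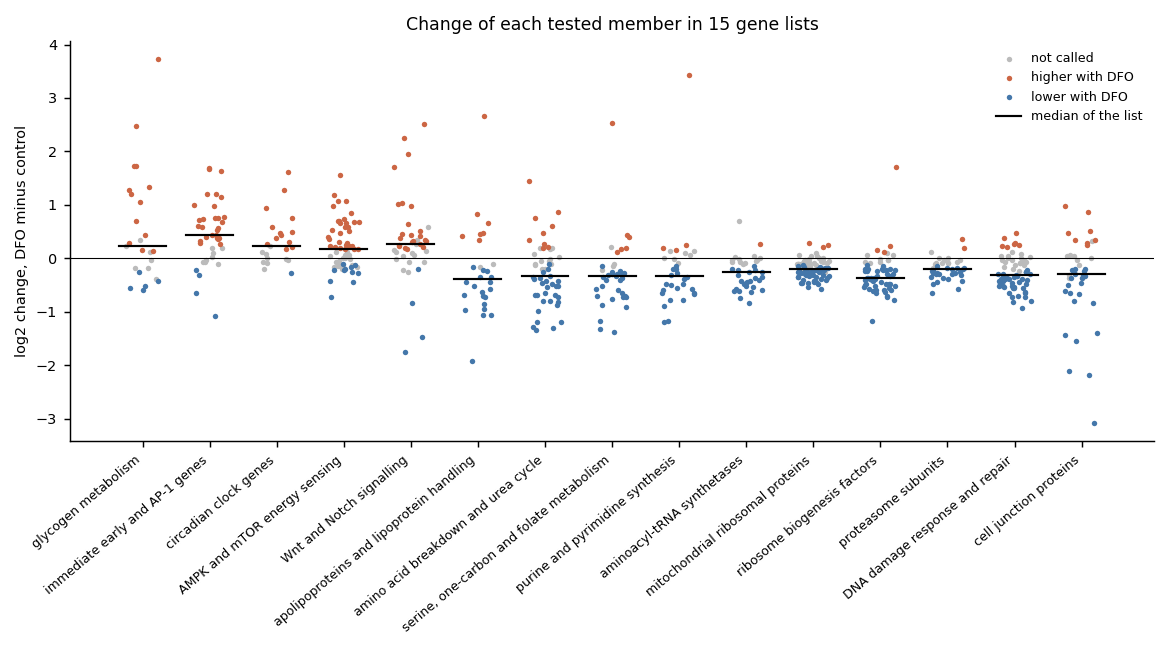
Log2 change with DFO of every tested member of 15 gene lists; each point is a gene (orange higher, blue lower, grey not called) and black bars mark the median of each list. Points of the immediate early, clock, energy sensing and Wnt lists lie mostly above 0, those of ribosome biogenesis, aminoacyl-tRNA synthetases and mitochondrial ribosomal proteins mostly below it.

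Immediate early genes, the fast-responding transcription factors and their feedback regulators, were the list with the highest share of increases, 27 of 39 tested (69.2%), with 4 lower and a median of 0.43. Klf4, a zinc finger transcription factor, rose from 11.5 to 13.4 CPM (median 13.1) to 39.2 to 46.2 CPM (median 40.6), a log2 change of 1.70 ± 0.06 (adjusted p = 1.82e-13). Atf3, a stress-induced repressor of the ATF family, rose from a median of 52.0 to 161.0 CPM. The groups were separate for both genes. Dusp4, a phosphatase of MAP kinases, rose 2.31-fold and Maff, a small Maf protein gene, 2.29-fold. Clock genes followed the same direction, 13 of 23 higher and 1 lower (median 0.23). Nr1d1, the gene of the haem-binding repressor REV-ERB alpha, rose 3.07-fold from 15.6 to 18.7 CPM (median 16.6) to 46.4 to 65.5 CPM (median 48.4), and its gene overlaps Thra. Per1, Nr1d2 and Dbp, other members of the clock or its output, rose 1.92-fold, 1.69-fold and 2.44-fold. Samples were taken at one time after treatment, so no phase can be read from these levels.

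Signalling between cells changed in both directions, by large factors for single ligands and receptors. Of 62 tested growth factors and receptor tyrosine kinases 23 were higher, 6 by over 2-fold, and 17 lower, 5 by over 2-fold. Besides Areg and Pgf, higher, and Axl, lower, the named members held Csf1, the growth factor of macrophages. It fell from 342.6 to 424.4 CPM (median 374.4) to 144.0 to 166.3 CPM (median 155.5), a log2 change of −1.29 ± 0.06 (adjusted p = 3.79e-12), with no overlap. In Wnt and Notch signalling 23 of 41 tested members were higher and 4 lower (median 0.26), but 11 were higher with limma on log2 FPKM, which tested fewer low genes. Wnt11, a Wnt ligand, rose 5.67-fold from a median of 1.15 to 6.06 CPM, and the receptor gene Notch3 rose 4.77-fold from 0.787 to 3.68 CPM. The transcription factor gene Tcf7 fell 3.35-fold. Jag1, a Notch ligand and far more abundant, fell from a median of 170.1 to 96.1 CPM and was lowest in DFO 6 at 73.3 CPM.

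In the TGF-beta and BMP list 26 of 49 members were higher and 8 lower (median 0.20), while several ligands were among the decreases. Tgfb2 fell 2.13-fold, from a median of 43.1 to 20.4 CPM, and Inhbc, which encodes the activin C subunit made by hepatocytes, fell 4.84-fold from 4.43 to 0.870 CPM. Inhbb, the activin B subunit gene, rose 2.85-fold, from 1.95 to 5.78 CPM. Ltbp2, a matrix protein of the latent TGF-beta binding family, fell 5.20-fold. Semaphorin, ephrin and plexin genes had 12 of 39 tested members higher (30.8%), 7 of them over 2-fold, and 14 lower (35.9%). The shares over all genes outside the 3 lists were 27.8% and 30%. With limma on log2 FPKM 3 members were higher. Plxnd1, a semaphorin receptor gene, rose 2.41-fold and Sema7a 6.64-fold, the latter from a median of only 0.182 to 1.07 CPM. Efnb1 fell 1.55-fold.

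Ribosome assembly had the highest share of lower members among the 51 lists. Of 59 ribosome biogenesis factors 46 were lower (78%) and 4 higher, with a median of −0.36. Dkc1 encodes dyskerin, the pseudouridine synthase of box H/ACA particles and a telomerase component (chromosome X, 75095854 to 75109777). It fell from 69.3 to 76.7 CPM (median 73.3) to 29.4 to 35.4 CPM (median 32.8), a log2 change of −1.17 ± 0.06 (adjusted p = 1.35e-11), with the groups apart. Rrp12, Nop56 and Mybbp1a, nucleolar proteins of pre-rRNA processing and transcription, fell 1.57-fold, 1.63-fold and 1.496-fold. The genes of the finished ribosome did not share that direction. Of 84 tested cytosolic ribosomal protein genes 27 were higher and 9 lower (median 0.11), and without DFO 6 24 were higher and 12 lower (median 0.043). Their share of all counts was 2.92% ± 0.12 in controls and 3.13% ± 0.35 with DFO (exact permutation test, adjusted p = 0.217), with 3.78% in DFO 6. Rpl12 rose 1.40-fold, and Rpl15 and Rpl27 fell 1.38-fold and 1.36-fold. Processed copies of these genes make the counts uncertain. Rps23rg1, which the list took in by its symbol and which is not a ribosome subunit, fell 2.27-fold. It is among the 9 lower genes.

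The supply side of protein and nucleotide synthesis fell with ribosome assembly. Of 37 aminoacyl-tRNA synthetases, which load tRNAs with amino acids, 24 were lower and 1 higher (median −0.26). Vars, the valyl enzyme, fell from 189.9 to 226.0 CPM (median 213.3) to 108.4 to 127.3 CPM (median 116.9), a log2 change of −0.84 ± 0.06, and Hars, Rars and Wars fell 1.67-fold, 1.45-fold and 1.52-fold. Translation factors went both ways, 16 higher and 16 lower of 46. Pabpc1, the poly(A)-binding protein gene, and Eif4a2, a helicase gene, rose 1.35-fold and 1.33-fold, and Eif1a and Eif3c fell 1.32-fold and 1.23-fold.

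Of 32 purine and pyrimidine synthesis genes 21 were lower and 4 higher (median −0.33). Ctps, which makes CTP, fell from 157.7 to 177.6 CPM (median 170.2) to 70.8 to 77.8 CPM (median 75.4), a log2 change of −1.17 ± 0.04 (adjusted p = 8.28e-13). Cad, which starts pyrimidine synthesis, fell 2.29-fold and Gart, of the purine pathway, 1.85-fold. Uox, the gene of urate oxidase, which turns urate into allantoin in mice (chromosome 3, 146570426 to 146632305), went the other way. It rose 10.7-fold, from 1.74 to 2.56 CPM (median 2.25) to 21.7 to 27.6 CPM (median 23.6), a log2 change of 3.42 ± 0.09 (adjusted p = 1.23e-14); it overlaps Dnase2b.

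Serine, one-carbon and folate metabolism fell in 27 of 37 tested genes and rose in 6 (median −0.33). Psat1, of serine synthesis, went from 112.6 to 134.7 CPM (median 128.4) to 46.2 to 55.9 CPM (median 49.9), a log2 change of −1.32 ± 0.06. Gldc, the glycine decarboxylase of the mitochondrial cleavage system, fell 2.26-fold and Mthfd1, a folate enzyme of the cytosol, 1.88-fold. The exception of greatest size was Chdh, choline dehydrogenase, which makes betaine. It rose 5.81-fold from 3.94 to 5.01 CPM (median 4.34) to 19.5 to 29.3 CPM (median 25.9). Proteasome subunits and cytosolic chaperones also leaned lower. Of 38 proteasome subunits 24 fell and 2 rose (median −0.20), with Psmb5, a catalytic subunit, down 1.496-fold and Psmd6 down 1.31-fold. Of 36 tested heat-shock and cytosolic chaperone genes 22 fell and 6 rose (median −0.19). Fkbp5 and Fkbp4, co-chaperones of HSP90, fell 1.65-fold and 1.48-fold, and Hspa2 and Dnajb6 rose 2.51-fold and 1.38-fold.

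Nuclear-encoded mitochondrial genes leaned lower, and the genes of the mitochondrial DNA did not share that direction. Of 79 mitochondrial ribosomal protein genes 45 were lower and 3 higher (median −0.19), each by less than 2-fold. Mrpl3, of the large subunit, fell 1.40-fold, from a median of 46.0 to 33.5 CPM, and Mrpl19, Mrpl39 and Mrpl42 fell 1.38-fold, 1.34-fold and 1.28-fold. Import, chaperone and protease genes had 22 of 42 members lower and 5 higher (median −0.18). Hspd1, the HSP60 chaperonin gene, fell from 528.5 to 549.6 CPM (median 540.0) to 330.5 to 395.4 CPM (median 370.6), 1.47-fold, with its neighbour Hspe1 overlapping it. Chchd4, which imports cysteine-rich proteins into the intermembrane space, fell 1.58-fold and Trap1, the mitochondrial HSP90, 1.35-fold, while Grpel2 rose 1.77-fold.

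For biogenesis and dynamics 11 of 26 genes were lower and 3 higher (median −0.12). Mtfp1, which promotes fission, fell 2.90-fold, from a median of 5.37 to 1.94 CPM. Ssbp1, the single-stranded DNA-binding protein of mitochondrial DNA, fell 1.29-fold, and the fusion GTPase gene Mfn2 fell 1.23-fold. Of 12 tested protein genes of the mitochondrial DNA, 3 were higher and none lower at the adjusted threshold (median 0.07). Their share of counts was 3.50% ± 0.14 in controls and 3.61% ± 0.34 with DFO (exact permutation test, adjusted p = 0.483). mt-Nd4 rose 1.13-fold, and mt-Atp6 and mt-Co2 rose 1.21-fold and 1.19-fold with overlapping groups. With limma on log2 FPKM instead of counts, mt-Co2 did not pass (adjusted p = 0.0533 and 0.0539 for the pair of pseudocounts).

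Amino acid breakdown and the urea cycle were lower in 29 of 51 genes and higher in 9 (median −0.33). Cth, which makes cysteine from cystathionine, fell from 82.6 to 95.8 CPM (median 90.01) to 34.9 to 38.4 CPM (median 35.8), a log2 change of −1.30 ± 0.05 (adjusted p = 1.38e-12). Kmo, of tryptophan breakdown, fell 2.54-fold and overlaps Fh1, and Ftcd, of histidine breakdown, fell 2.28-fold. Cdo1 encodes cysteine dioxygenase, an iron enzyme that commits cysteine to taurine and sulphate. It rose from 40.6 to 60.8 CPM (median 46.0) to 118.9 to 140.4 CPM (median 129.3), a log2 change of 1.44 ± 0.08 (adjusted p = 1.23e-10), without overlap. Amino acid transporters went both ways, 11 higher and 12 lower of 30 tested. Slc7a7, which exports cationic amino acids, fell 3.40-fold and Slc38a3, a glutamine transporter of the liver, 1.69-fold, while Slc16a10, of aromatic amino acids, rose 2.18-fold.

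Plasma protein genes split by class. Acute phase proteins were higher in 13 of 28 and lower in 6 (median 0.08), and their share of counts went from 2.13% ± 0.08 to 2.32% ± 0.11 (exact permutation test, adjusted p = 0.0167). A2m, the gene of alpha-2-macroglobulin, had at most 0.134 CPM in any control and 0.854 to 1.604 CPM with DFO (adjusted p = 2.75e-08), so its large ratio rests on very low control counts. Serpina3m rose 1.97-fold, with copies nearby that make it uncertain, and Itih3 and Saa4 fell 1.83-fold and 1.68-fold. Complement genes were lower in 10 of 25 tested and higher in 5 (median −0.08), yet their share of counts rose from 0.401% ± 0.009 to 0.450% ± 0.014 (adjusted p = 0.0039). C3, the central and most abundant component, rose from 1644 to 1742 CPM (median 1685) to 2172 to 2531 CPM (median 2474). Mbl2 and Masp2, of the lectin pathway, and Cfi, which inactivates C3b, fell 1.55-fold, 1.67-fold and 1.36-fold.

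Coagulation and fibrinolysis genes were lower in 12 of 24 tested and higher in 7 (median −0.23), with a share of counts of 0.182% ± 0.002 in controls and 0.171% ± 0.008 with DFO (adjusted p = 0.0097). Serpinf2, the gene of alpha-2-antiplasmin, fell from 128.8 to 151.4 CPM (median 139.1) to 41.9 to 50.6 CPM (median 48.0), a log2 change of −1.54 ± 0.05. Thbd, thrombomodulin, fell 2.56-fold, Serpind1, heparin cofactor II, 1.93-fold and F3, tissue factor, 1.74-fold. Apolipoprotein and lipoprotein genes were lower in 19 of 28 and higher in 7 (median −0.39), and their share of counts fell from 0.930% ± 0.044 to 0.734% ± 0.023 (adjusted p = 0.0039). Apom, an apolipoprotein of HDL that carries sphingosine-1-phosphate, fell from 51.4 to 66.9 CPM (median 56.9) to 12.1 to 20.1 CPM (median 14.8). Angptl4, the gene of an inhibitor of lipoprotein lipase, fell 1.93-fold. Vldlr, above, was the 1 member of the list that rose over 2-fold.

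Of drug and sterol metabolism, the cytochromes P450 leaned lower. Cytochromes P450 of families 1 to 3 were lower in 14 of 29 tested genes and higher in 6 (median −0.11). Their share of counts fell from 0.0902% ± 0.0024 to 0.0624% ± 0.0021 (exact permutation test, adjusted p = 0.0039), and Cyp2c70 is their largest single loss. Cyp1a1, the aryl hydrocarbon receptor target, fell 1.59-fold and Cyp2d26 1.83-fold. Cyp3a13 rose 2.09-fold, from 58.1 to 66.2 CPM (median 64.0) to 128.7 to 133.0 CPM (median 131.0), with a log2 change of 1.06 ± 0.04 (adjusted p = 1.98e-12). Reads of related P450 genes may be divided among them by the counting. Conjugating enzymes were lower in 16 of 39 tested and higher in 13, or 14 and 13 with RLE or upper-quartile scaling. Ugt1a1, which conjugates bilirubin and shares its last exons with the other genes of its cluster, rose 3.69-fold, and Gstm4, Tpmt and Gstz1 fell 1.79-fold, 1.52-fold and 1.599-fold. In the list of steroid, bile acid and retinoid enzymes 23 of 58 were lower and 16 higher (median −0.09). Of its members, Rdh10 was higher, and Aldh1a1 and its relative Aldh1a7 were lower, the latter 1.95-fold.

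Among nuclear receptors and hepatocyte transcription factors 16 of 60 tested were higher (26.7%) and 18 lower (30%). These shares were near the 27.8% and 30% over all tested genes outside the 3 lists. Hnf4a, a nuclear receptor gene central to hepatocyte identity (chromosome 2, 163506808 to 163572910), fell from 295.3 to 319.4 CPM (median 304.6) to 139.7 to 171.1 CPM (median 164.0), a log2 change of −0.92 ± 0.05 (adjusted p = 7.33e-11). All DFO libraries were below all controls, and DFO 6 was lowest (the other 5 held 163.1 to 171.1 CPM). Nr1i2, the xenobiotic receptor PXR, and Nr1h4, the bile acid receptor FXR, fell 1.87-fold and 1.55-fold. Sox9, a factor of bile duct cells and progenitors, rose from 16.3 to 22.4 CPM (median 20.2) to 44.2 to 53.5 CPM (median 50.5), a log2 change of 1.34 ± 0.07.

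Ductal, progenitor and fetal liver genes as a list were lower in 19 of 37 tested (9 over 2-fold) and higher in 8 (3 over 2-fold), with a median of −0.21. Igf2bp1, a fetal RNA-binding protein gene, fell 3.19-fold, and Afp, alpha-fetoprotein, from 61.9 to 81.4 CPM (median 73.1) to 23.7 to 31.0 CPM (median 27.9). Hmga2, another fetal gene, rose 2.14-fold, so that Sox9 and Hmga2 ran against the list. Of peroxisome genes 19 of 43 tested were lower and 6 higher (median −0.11). Pipox and Amacr, enzymes of pipecolate and branched-chain fatty acid breakdown, fell 2.00-fold and 2.04-fold, Pex3 fell 1.33-fold and Pex11a rose 1.35-fold. Phospholipid and sphingolipid genes had 12 of 51 tested higher (23.5%) and 16 lower (31.4%), near the 27.8% and 30% over all genes outside the 3 lists. Ugcg, glucosylceramide synthase, rose 2.36-fold, from a median of 60.1 to 140.4 CPM. Lpcat4 and Pla2g12b fell 3.06-fold and 2.15-fold.

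Genes of cell junctions and of the cytoskeleton leaned lower. Of 40 tested junction genes 22 were lower, 6 of them by over 2-fold, and 8 higher (median −0.30). Gjb2, whose connexin 26 forms gap junctions between hepatocytes, fell from 29.9 to 36.3 CPM (median 34.3) to 11.1 to 15.01 CPM (median 12.7), 2.64-fold. Marveld1 fell 2.71-fold, and Cgn, the tight junction protein cingulin, fell 1.78-fold from a median of 207.4 to 121.1 CPM. Actin cytoskeleton genes and their regulators were lower in 35 of 76 and higher in 18 (median −0.15), and their share of counts fell from 2.81% ± 0.05 to 2.37% ± 0.03 (exact permutation test, adjusted p = 0.0039). Fscn1, the actin-bundling protein fascin, fell 5.88-fold, Cnn2 2.91-fold and Anln, anillin, which also serves in cytokinesis, 2.23-fold. Rhou, a small GTPase gene, rose 1.68-fold.

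Integrin and adhesion genes were lower in 22 of 51 tested and higher in 16. Lama5, a laminin chain, fell 3.17-fold, with DFO 6 lowest at 6.87 CPM against 10.6 to 12.6 in the other DFO libraries. Tes, of focal adhesions, and Cd44, the hyaluronan receptor, rose 1.63-fold and 1.51-fold. Tubulin and microtubule genes were lower in 15 of 35 tested and higher in 5, a count that was 9 without DFO 6. Tubb2b fell from a median of 67.2 to 22.8 CPM, and Tuba1b, Tubb5 and Ttll12 fell 1.64-fold, 1.29-fold and 1.44-fold.

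DNA repair and histone genes moved apart. Of 69 genes of the DNA damage response and repair 42 were lower and 7 higher (median −0.32), none by over 2-fold. Rtel1, an iron-sulphur helicase, fell 1.65-fold, Apex1, of base excision repair, 1.66-fold, and Parp1 1.45-fold, from 71.9 to 82.0 CPM (median 75.9) to 47.5 to 54.9 CPM (median 53.1). Of 34 histone genes 21 were tested, of which 12 were higher and 4 lower (median 0.25). H2bc4, H2bc6 and H2aw rose 1.67-fold, 1.601-fold and 1.84-fold, and the linker histone H1f0 1.32-fold; members of these families share sequence, which makes their counts uncertain. Chromatin regulators went both ways, 23 higher and 25 lower of 75 (30.7% and 33.3%), near the 27.8% and 30% over all genes outside the 3 lists. Uhrf1, which maintains DNA methylation at replication, fell 1.86-fold, Hdac7 1.65-fold and Prmt1 1.63-fold, and the Polycomb methyltransferase gene Ezh1 rose 1.51-fold.

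Of 49 apoptosis genes 14 were higher (28.6%) and 16 lower (32.7%), near the 27.8% and 30% over all tested genes outside the 3 lists. Bcl2l11 encodes the pro-apoptotic protein BIM (chromosome 2, 128126038 to 128162547). It rose from 10.6 to 13.3 CPM (median 12.3) to 31.0 to 37.0 CPM (median 34.9), a log2 change of 1.502 ± 0.06 (adjusted p = 2.40e-12), with the groups apart. Aifm1, a mitochondrial flavoprotein that also supports complex I, fell 1.79-fold, Htra2, a mitochondrial protease, 2.14-fold, and Casp8, the initiator caspase of death receptors, 1.35-fold.

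The list of NF-kB and cytokine genes was likewise divided, with 31 of 80 tested higher and 29 lower. Cxcl10, a chemokine induced by interferon, rose from 34.1 to 46.0 CPM (median 39.0) to 100.2 to 141.1 CPM (median 114.4), a log2 change of 1.57 ± 0.08 (adjusted p = 3.52e-11), and overlaps Art3. Il1rn, the interleukin 1 receptor antagonist, rose 2.06-fold and Tnfaip2 fell 2.21-fold. Antigen presentation genes were 8 higher and 8 lower of 27 tested (29.6% each), near the 27.8% and 30% over all genes outside the 3 lists. H2-K1, a classical class I heavy chain with many related genes, rose 1.44-fold and was highest in DFO 6 (544.1 CPM against 381.0 to 435.9), Canx rose 1.24-fold and Cd1d1 fell 1.44-fold.

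Zinc, copper and magnesium transport genes were higher in 16 of 41 and lower in 11 (median 0.07). The median was 0.125 without DFO 6 and 0.027 with scaling by library totals, where 15 were higher and 13 lower. Cnnm2 and Cnnm3, of the magnesium transport family, rose 2.49-fold and 2.01-fold, and the zinc importer gene Slc39a6 1.53-fold. Steap2, a metalloreductase of iron and copper, fell from 81.3 to 97.4 CPM (median 90.05) to 35.2 to 42.7 CPM (median 38.0), a log2 change of −1.22 ± 0.06. Selenoprotein and redox genes were lower in 20 of 50 tested and higher in 11 (median −0.09, or −0.134 without DFO 6). Prdx3, the peroxiredoxin of mitochondria, fell from 211.9 to 234.4 CPM (median 227.7) to 113.0 to 124.7 CPM (median 117.2), 1.904-fold, and Gpx7 fell 2.54-fold. Of carbonic anhydrases, pH regulators and ion pumps 12 of 45 tested were higher (26.7%) and 13 lower (28.9%). These shares were near the 27.8% and 30% over all genes outside the 3 lists. Clcn7 rose 1.35-fold, and Atp1b1, of the sodium pump, and Slc9a3r2 fell 1.41-fold and 1.67-fold.

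Genes of folding in the endoplasmic reticulum and of ubiquitin conjugation were more often higher, unlike the proteasome and cytosolic chaperone genes above. In the list of endoplasmic reticulum folding and the unfolded protein response 21 of 44 were higher and 9 lower (median 0.11). Ppp1r15a (GADD34), which restores translation after stress, rose from 49.9 to 59.5 CPM (median 53.1) to 119.6 to 159.3 CPM (median 131.0), 2.52-fold. Eif2ak3, the stress kinase PERK, rose 1.88-fold, Dnajb9 1.86-fold and P4hb, protein disulphide isomerase, 1.56-fold. In transport from the endoplasmic reticulum to the Golgi 11 of 47 were higher (23.4%) and 8 lower (17%), or 9 and 11 with scaling by library totals. Both main shares were below the 27.8% and 30% over all genes outside the 3 lists. Kdelr3 was up 1.84-fold and Mcfd2 down 1.43-fold. Ubiquitin and SUMO genes were higher in 29 of 70 tested and lower in 13 (median 0.07, or 0.047 without DFO 6). With scaling by library totals the counts were 22 and 17. Fbxo32, the FOXO target atrogin 1, rose 1.75-fold, Ube2b 1.47-fold and Ube2h 1.43-fold, while the cullin gene Cul7 fell 1.89-fold. Splicing factors were lower in 23 of 57 and higher in 10 (median −0.09), with Prpf31 down 1.56-fold and the kinase Clk1 up 1.42-fold. RNA polymerase II, Mediator and mRNA decay genes were 18 higher (26.1%) and 17 lower (24.6%) of 69 tested. Both shares were below the 27.8% and 30% over all genes outside the 3 lists. Cnot7, of the deadenylase complex, rose 1.39-fold and Cdk7 fell 1.35-fold.

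Long non-coding RNAs were mostly at low levels. The 5 largest increases among those reaching 1 FPKM were Zfp469, listed as a long intergenic RNA (2.66-fold), Dubr (2.50-fold), Junos (1.84-fold), Mirt2 (1.82-fold) and Trp53cor1, also called lincRNA-p21 (1.79-fold). Junos overlaps Jun on the other strand, and whether the counting told the 2 apart is not known. Zfp469 held 26.9 to 32.8 CPM in 5 DFO libraries and 15.4 in DFO 6, against 8.32 to 12.0 CPM in the controls. The 5 largest decreases were Eprn (5.18-fold), Adap2os, which overlaps Adap2 (2.74-fold), Bc1 (2.68-fold), Hotairm1 (2.28-fold) and Mirt1 (1.895-fold).

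Markers of other liver cells were measured in the same libraries, and in such bulk samples fewer cells of a type and less RNA per cell cannot be told apart. Of 20 macrophage and Kupffer cell markers 19 were tested, 15 were higher (78.9%), none lower and 4 not called. With quality weights or without DFO 6, 1 was lower. The summed level of the 20 markers was 196.5 to 235.4 CPM (median 215.3) in controls and 296.6 to 397.3 CPM (median 335.1) with DFO. Cd68, a lysosomal protein of macrophages, rose 2.54-fold, Laptm5 1.79-fold, Adgre1 1.61-fold and Ptprc 1.47-fold. Other markers moved less, with control and DFO medians of 4.65 and 5.28 CPM for Clec4f, 11.7 and 13.2 for Marco and 1.24 and 1.25 for Aif1. Cd163 had medians of 0.505 CPM in controls and 0.244 CPM with DFO. Genes that macrophages also express, such as Csf2, Cxcl10 and Il1rn, moved with the higher markers, and the part of these cells in those results was not tested.

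Endothelial markers summed to 51.9 to 59.2 CPM in controls and 56.9 to 76.0 CPM with DFO. Of 14 tested 4 were higher (28.6%) and 1 lower (7.14%), against 27.8% and 30% over all genes outside the 3 lists. Stab2 and Cdh5 rose 2.56-fold and 2.59-fold at levels below 10 CPM, and 9 of the 14 were not called. Eng, the 1 lower marker, went from 4.86 to 5.99 CPM to 3.47 to 5.47 CPM, with overlapping groups. Stab1, the most abundant of the list, had medians of 19.35 CPM in controls and 18.29 CPM with DFO. Stellate cell and fibroblast markers summed to 20.7 to 36.4 CPM (median 26.2) in controls and 13.2 to 42.5 CPM (median 15.6) with DFO. Of 10 tested 4 were higher (40%) and 2 lower (20%). Without DFO 1 the lower count was 5, and with quality weights it was 4 and the median log2 change turned from 0.29 to −0.064. Col1a1 fell 2.51-fold, from a median of 17.4 to 6.87 CPM. Thy1, the other lower marker, went from 0.485 to 1.07 CPM in controls to at most 0.261 CPM with DFO. Of the 4 higher markers, Reln went from 0.053 to 0.307 CPM to 0.9275 to 2.055 CPM. Rgs5 went from 0.254 to 0.652 CPM to 1.198 to 3.21 CPM and was highest in DFO 1. Cholangiocyte markers summed to 2256 to 2638 and 1927 to 2127 CPM, most of it Spp1 (median 2258 in controls and 1714 with DFO), with Sox9 higher and Krt7 and Spp1 lower of 6 tested. Hepatocyte markers summed to 24320 to 28120 CPM in controls and 28020 to 32470 CPM with DFO, most of it Alb and Trf, while 7 of 16 were lower and 5 higher. Cps1, the first urea cycle enzyme, rose 1.81-fold. The summed neutrophil, lymphocyte and mesothelial markers were at most 2.32, 2.25 and 3.83 CPM in any library, and the erythroid and platelet markers at most 13.8 CPM. Some genes that define them were under 0.1 CPM in every library, among them Elane, Retnlg, Cxcr2, Cd3e, Cd3d, Cd3g and Slc4a1. Other members went above that level, such as Ngp (up to 0.813), Ighm (0.879), Cd79a (0.882), Ppbp (0.961) and Hba-a1 (1.09 CPM). Csf3r and Cd79a were called higher, from medians of 0.372 and 0.2495 CPM to 0.856 and 0.586 CPM. Msln was called lower, from 2.655 to 1.27 CPM. S100a9, not tested, had medians of 0.336 CPM in controls and 0.0418 CPM with DFO.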

How the data were processed

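Transcripts were measured by sequencing in 12 hepatocyte libraries, 6 control and 6 DFO, grouped by their labels. The authors deposited read counts as whole numbers for each Ensembl gene, and FPKM values that were within 0.492% of those recomputed from the deposited counts, the exonic size and the library total. The mm10 build, HISAT2 2.0.1 and cutadapt 1.9.1 are named in the submitters' processing notes; which program counted the reads, with which annotation and whether by strand, is not given in the sources used here. Of 55401 gene IDs 55141 occur in GENCODE M21, from which kinds of gene were taken.

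The counts were tested with edgeR 4.0.16 in R 4.3.3 (TMM scaling, filterByExpr, glmQLFit and glmQLFTest, 6 against 6, no covariate), with Benjamini-Hochberg adjustment over all 15660 genes kept and a threshold of 0.05. The procedure was tested on simulated data. Levels are TMM-scaled CPM, except for cell type markers given per library total. Those are the sums, the control medians of hepatocyte and bile duct markers at the outset, and single markers described with the sums. Of the single markers, Eng, Col1a1, Thy1, Reln and Rgs5 are TMM-scaled. The standard error is that which the F value implies. Shares of counts were compared by two-sided exact permutation over libraries, adjusted over 9 shares. All pairs of libraries within a group differed by more than sampling noise (chi-square at least 3.44 times its degrees of freedom). Depth was 19342490 to 41839154 counts per library, and intervals of counting error are not given because the spread between libraries was larger.

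Genes of the 3 left-out lists (34 HIF targets, 29 of glycolysis and 38 of the cell cycle, compiled anew and so not identical with earlier lists) were tested with the rest and then not counted. The members and the 51 lists were chosen with earlier results of these data known. Of 2583 list entries 2 had no match by symbol or synonym. Named genes follow a rule: the 20 leading changes in each direction (protein-coding, called, groups apart, mean FPKM of at least 5 in the higher group), up to 4 called members of smallest p per list, the 10 largest gains and losses in CPM, and the 5 leading non-coding RNAs in each direction (FPKM of at least 1). Also named outside the rule are cell type markers, the 10 most abundant genes, overlapping partners, Gys2 and Phka2. A few named genes are not reported here, though all counts include them. Of the 272 genes named by the rule 74 overlap another tested gene. Promoter windows came from RefSeq. Alternatives were other scalings, no filter and a filter of 1 CPM in 6 libraries, DESeq2 1.42.0, limma 3.58.1 on log2(FPKM + 1) and log2(FPKM + 0.1), voom with quality weights, a replicate block and leaving out each library. The stellate cell libraries of the series were not used here.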

Additional observations from a re-analysis of the deposited data

Results flagged for a closer look

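For each named gene and share, the highest or lowest library of a group was marked where its distance to the nearest other library was large against the range of the group. Of 550 groups looked at 43 were marked, where chance marks about 1 in 20. The library DFO 6 held 18 of the 43, DFO 1 held 6, DFO 5 and control 6 held 4 each, DFO 4 and control 5 held 3 each, control 3 and control 4 held 2 each and control 1 held 1. Beside this, DFO 6 had the shortest mean exonic length per count (4.73 kb) and the most extreme second principal component (34.9), whose part in the marks was not tested.

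In DFO 6 the levels that stood above the other 5 DFO libraries were those of Chchd4 (25.7 CPM), Csf2 (6.29), Fam162a (406.8), H2-K1 (544.1), H2aw (12.0), Lgals1 (986) and Psmd6 (114.3 CPM). Those that stood below were C3 (2172 CPM), Flna (729.3), Gart (59.4), Hnf4a (139.7), Jag1 (73.3), Lama5 (6.87), Mfn2 (90.9), Narf (61.2), Parp1 (47.5), Slc39a6 (79.2) and the non-coding Zfp469 (15.4 CPM). For each of these genes DFO 6 still lay on the same side of all controls as the other DFO libraries.

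In DFO 1 the levels of Cdh5 (9.44 CPM), Pex3 (19.6) and Rgs5 (3.21) were high and those of Exosc2 (23.3), Serpina3m (31.4) and Serpinf2 (41.9 CPM) low. In DFO 4 CT010467.1 (8753 CPM) and Msln (1.77) were high and Mrpl3 (29.9 CPM) low. In DFO 5 Adgre1 (6.73 CPM), Klf4 (46.2) and Ugt1a1 (11.8 CPM) were high, as was the share of counts of the 10 most abundant genes (11.6%).

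Among controls, Hspa2 (2.97 CPM) and Selenbp2 (38.3 CPM) were high in control 3, A2m was high (0.134 CPM) and Serpinb6b low (118.5 CPM) in control 4, and Eif1a (268.2 CPM), Il1rn (12.7) and Ugp2 (205.9 CPM) were high in control 5. Control 6 was high for Stab2 (3.44 CPM) and Ugt1a1 (3.16) and low for Dnajb6 (61.7 CPM) and for the share of acute phase proteins (1.97%). Control 1 was low for mt-Nd4 (2412 CPM).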

How the results depend on the processing

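The counts of 4329 higher and 4673 lower genes stayed within 1.5 times under every alternative run. Leaving out each library in turn gave 4112 to 4619 higher and 4452 to 4997 lower genes, and the other alternatives gave 3221 to 4756 and 4248 to 5173. The 2-fold counts (685 higher, 553 lower) moved more: 1306 and 865 without the expression filter, 398 higher with the filter of 1 CPM, 124 and 140 with limma on log2(FPKM + 1), and 357 higher with log2(FPKM + 0.1). No scaling moved the median of all genes by more than 0.056 (log2), and no named gene reversed. Same-numbered libraries did not deviate together (correlations −0.245 to −0.0027, 0 of 12 libraries correlating best with their own number), and a fit with the replicate block gave 3878 higher and 4272 lower genes. Calls that some alternatives lost were those of Apob (adjusted p up to 0.0663, without control 6), Eef1a1 (up to 0.116, with the replicate block), CT010467.1 (up to 0.469, without DFO 4), Krt8 (0.0687, with the replicate block) and mt-Co2 (limma on log2 FPKM). Without DFO 1 the share of ribosomal protein counts differed by 0.281 percentage points (adjusted p = 0.0292). Of counts of list members 78 moved by over 1.5 times, most of them small counts; members of mitochondrial import higher were 3 rather than 5 without control 1 or control 2, histone members lower were 2 rather than 4 without control 1, apoptosis members higher were 9 rather than 14 with limma, and the 1 lower clock gene was lost without any of 8 single libraries. The median of some lists near 0 changes sign with another scaling or fit or without DFO 6, so no direction is given for transport from the endoplasmic reticulum to the Golgi, phospholipids, chromatin, transcription factors, cytokines, or RNA polymerase II. Depth limits what can be said of genes below about 1 CPM.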
